A study of Homo sapiens with 24 samples.

Results

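The transcript response to arsenite was compared between 2 HAP1 lines, S51A and HRI, and 4 other HAP1 lines, PAR, GCN2, PKR and PERK. The members were chosen from the array titles: all 6 arrays titled SA100 and all 9 titled no drug, which are 15 of the 24 arrays in the series, and no lomustine array was used. HAP1 is a near-haploid human line that came from KBM-7 chronic myelogenous leukemia cells. S51A is named for a change in eIF2-alpha at the serine that stress kinases phosphorylate, and HRI, GCN2, PKR and PERK are lines that the labels mark as lacking the kinase of that name, while PAR is the parental control. The groups with SA100 were S51A, HRI, PAR, GCN2, PKR and PERK cells given 100 µM sodium arsenite for 2 h, with 1 array each. The groups without drug had 2 arrays each for S51A, HRI and PAR and 1 array each for GCN2, PKR and PERK. The agent field of the SA100 arrays names lomustine, which conflicts with their titles, and these arrays were read as arsenite from the title and the treatment text. The labels give neither the way the lines were made nor whether each is 1 clone. They do not say whether repetitions were separate cultures. The p-values rest on the spread between duplicated no drug arrays, which may be technical. They also rest on how the change differed among PAR, GCN2, PKR and PERK.

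Phosphorylation of eIF2-alpha slows the start of translation for most mRNAs while a few, such as ATF4, are translated more, and ATF4 then switches on genes of the integrated stress response. HRI is the kinase known to respond to arsenite and to heme shortage, GCN2 to amino acid shortage, PKR to double-stranded RNA and PERK to stress in the endoplasmic reticulum. Without that serine, eIF2-alpha cannot be phosphorylated there whichever kinase is active. Arsenite also activates heat shock factor 1, NRF2 and the metal sensor MTF1, which act on other sets of genes. The comparison therefore asked which transcripts responded less in S51A, in HRI and in both than in the 4 lines whose labels name a change in neither.

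Values are log2 expression levels, and a change is the SA100 level minus the mean no drug level of the same line, so that 1 unit is a factor of 2. In limma, the change of S51A was lower than that of the 4 lines for 3 genes and higher for 0 of 16613 genes tested (0.0181% called at an adjusted p under 0.05), and 525 genes had an unadjusted p under 0.05. The change of HRI was lower for 2 genes and higher for 0 (0.012%), with 741 at an unadjusted p under 0.05. The mean change of S51A and HRI was lower for 5 genes and higher for 0 (0.0301%), with 784 at an unadjusted p under 0.05. As background, SA100 itself raised 280 and lowered 245 genes in the 4 lines (3.16%). H2AC20 and H1-2 passed in both S51A and HRI, CHAC1 passed in S51A, and no gene passed in HRI alone. The direct test of S51A against HRI called 0 genes (0%) in limma, with 327 at an unadjusted p under 0.05, so no gene was shown to be reduced in only 1 of the 2 lines. Each of these counts at an unadjusted p under 0.05 is less than the share of 0.05 of genes tested that chance alone would give. With 1 SA100 array per line, the test assumes that the S51A and HRI arrays vary like those of the 4 lines. Each of the 4 lines and each duplicated no drug array was left out in turn, in 10 fits. For the mean of S51A and HRI, H1-2 and H2AC20 passed in 10 of 10. The calls in single lines were less stable: in S51A H1-2 and H2AC20 passed in 0 of 10 and CHAC1 in 1, that without PAR, and in HRI H1-2 passed in 0 of 10 and H2AC20 in 2, those without either S51A no drug array. With arrays centred on their medians 0 genes passed in S51A and 1 in HRI, and with the 6 changes as the unit 0 genes passed in any of the 3 comparisons with the 4 lines.

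Of the genes that the comparisons turn on, the stretch upstream of the start is printed for CHAC1, GADD45G, SNHG12, H2AC20 and H1-2, each past a test against the 4 lines, and for H2AC21, the neighbour of H2AC20, which did not pass. Each is 250 bases from RefSeq on GRCh38.p14, on the strand of the gene. Capitals mark TGATGNAA, the composite C/EBP-ATF element through which ATF4 is known to act, and CCAAT, a general promoter element, on either strand. CHAC1 is at chr15:40953221-40953470 (plus strand), GADD45G at chr9:89604762-89605011 (plus strand), SNHG12 at chr1:28581874-28582123 (minus strand), H2AC20 at chr1:149886668-149886917 (plus strand), H2AC21 at chr1:149887966-149888215 (minus strand) and H1-2 at chr6:26056471-26056720 (minus strand).
CHAC1: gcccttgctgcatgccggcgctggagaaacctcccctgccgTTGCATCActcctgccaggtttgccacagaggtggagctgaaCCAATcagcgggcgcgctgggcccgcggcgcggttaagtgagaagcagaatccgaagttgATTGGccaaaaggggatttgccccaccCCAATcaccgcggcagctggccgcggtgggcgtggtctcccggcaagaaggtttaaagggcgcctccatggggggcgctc
GADD45G: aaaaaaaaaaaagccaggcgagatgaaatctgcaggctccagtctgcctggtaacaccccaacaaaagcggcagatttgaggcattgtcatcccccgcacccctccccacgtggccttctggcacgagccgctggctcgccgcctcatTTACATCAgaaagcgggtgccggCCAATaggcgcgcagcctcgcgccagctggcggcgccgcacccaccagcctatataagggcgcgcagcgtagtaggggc
SNHG12: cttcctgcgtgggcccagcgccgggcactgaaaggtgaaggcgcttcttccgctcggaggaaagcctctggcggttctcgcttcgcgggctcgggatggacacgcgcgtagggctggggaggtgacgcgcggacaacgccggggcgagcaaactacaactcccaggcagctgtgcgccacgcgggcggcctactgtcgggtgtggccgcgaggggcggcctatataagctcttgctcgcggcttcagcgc
H2AC20: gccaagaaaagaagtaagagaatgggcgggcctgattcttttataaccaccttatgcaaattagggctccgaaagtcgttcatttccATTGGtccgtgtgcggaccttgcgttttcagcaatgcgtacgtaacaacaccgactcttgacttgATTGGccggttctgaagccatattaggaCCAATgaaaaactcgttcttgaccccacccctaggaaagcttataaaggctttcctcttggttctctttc
H2AC21: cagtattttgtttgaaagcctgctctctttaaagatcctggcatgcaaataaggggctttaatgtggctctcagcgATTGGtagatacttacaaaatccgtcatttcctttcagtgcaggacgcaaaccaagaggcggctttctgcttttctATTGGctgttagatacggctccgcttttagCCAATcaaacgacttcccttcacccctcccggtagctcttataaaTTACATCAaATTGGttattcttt
H1-2: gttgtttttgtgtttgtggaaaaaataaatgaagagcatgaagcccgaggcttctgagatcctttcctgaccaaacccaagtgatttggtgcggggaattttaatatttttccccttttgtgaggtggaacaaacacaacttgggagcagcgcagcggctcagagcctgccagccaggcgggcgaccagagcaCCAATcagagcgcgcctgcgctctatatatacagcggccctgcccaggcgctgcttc
The C/EBP-ATF element began 209 bases before the start in CHAC1, 102 bases before it in GADD45G and 23 bases before it in H2AC21, and it was not in the stretches of SNHG12, H2AC20 and H1-2. The 300 bases searched, which add 50 bases after the start, held it in 1270 of 35116 RefSeq promoters (3.62%). Among promoters of genes tested it was in 244 of 12262 (1.99%). It was in 3 of the 23 promoters found for the list of stress response targets. CCAAT was in 12155 of the 35116 (34.6%) and in 23 of 24 histone promoters. TGACGTCA, TGANTCA and GAANNTTC were searched on both strands as well and were not in these 6 upstream stretches. A match is a description of the letters and not a measured binding site.

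With SA100, 2 histone mRNAs fell further in S51A and in HRI than in the 4 lines. H2AC20, which encodes a core histone H2A, had a level of 8.77 with SA100 against 10.97 and 10.72 without drug in S51A. In HRI its level was 8.70 with SA100 against 11.02 and 11.01 without drug. In the 4 lines it lay between 10.72 and 10.95 with SA100, and without drug the lowest level there was 10.76. The S51A and HRI levels with SA100 thus lay apart from all 13 other arrays, while the 4 lines overlapped across treatments. The change was -2.08 in S51A and -2.31 in HRI against a mean of -0.12 ± 0.14 in the 4 lines (SD, n = 4). The fitted difference was -1.96 (SE 0.24, adjusted p = 0.0398) for S51A and -2.20 (SE 0.24, adjusted p = 0.0204) for HRI, and for their mean it was -2.08 (SE 0.19, adjusted p = 0.0029), a ratio of SA100 to no drug 4.23-fold lower.

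H1-2, a linker histone, had a level of 5.02 with SA100 against 7.78 and 7.95 without drug in S51A. In HRI it was 5.34 with SA100 against 8.18 and 8.21 without drug. In the 4 lines SA100 gave 7.18 in PAR, 7.28 in GCN2, 7.92 in PKR and 7.46 in PERK, and no drug gave between 7.87 and 8.24. H1-2 fell with SA100 in the 4 lines too, by 0.62 units (adjusted p = 0.0311, SE 0.14), and its change was lower still, by more than 2 units, in S51A and HRI. The difference from the 4 lines was -2.22 for S51A (SE 0.28, adjusted p = 0.0398), -2.23 for HRI (SE 0.28, adjusted p = 0.0415) and -2.23 for their mean (SE 0.22, adjusted p = 0.0036). H2BP1, an H2B pseudogene, had 7.29 in S51A and 7.48 in HRI with SA100, against 8.62 to 8.87 in the 4 lines with SA100. All no drug levels of H2BP1 lay between 9.15 and 9.42, so the lines differed with SA100 and were close without it. Its mean difference was -1.29 (SE 0.18, adjusted p = 0.0418). This call was lost in all 10 fits that leave out a line or array and with centred arrays, a mean for each group or the 6 changes as the unit, and the adjusted p of H2BP1 over all alternatives ran from 0.00115 to 0.259 in limma.

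H2AC21, a further H2A gene that lies next to H2AC20 on the opposite strand, had a change of -1.80 in S51A and -1.97 in HRI against -0.16 ± 0.24 in the 4 lines (SD, n = 4). Its mean difference of -1.73 did not pass (limma, adjusted p = 0.0853). The linker histone H1-4 had changes of -1.28 and -1.33 in S51A and HRI and of -0.29 to 0.04 in the 4 lines, and did not pass either. Of the 34 histone genes on the list, 27 had levels that allowed a test. The changes of 12 of these 27 lay below each of the 4 lines in both S51A and HRI, against 6.4% of all genes tested, and 2 passed the test. H3C13, a core histone H3 gene, had another order: its change was -2.16 in S51A and -1.90 in HRI, within the range of -2.77 to -0.84 of the 4 lines. The median change over the 27 was -0.88 in S51A and -0.58 in HRI, against -0.21 in PAR, -0.25 in GCN2, -0.09 in PKR and -0.18 in PERK. Histone genes have near-identical copies, so a probe set may read several of them, and their levels are not separate measurements.

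**Figure D1:**
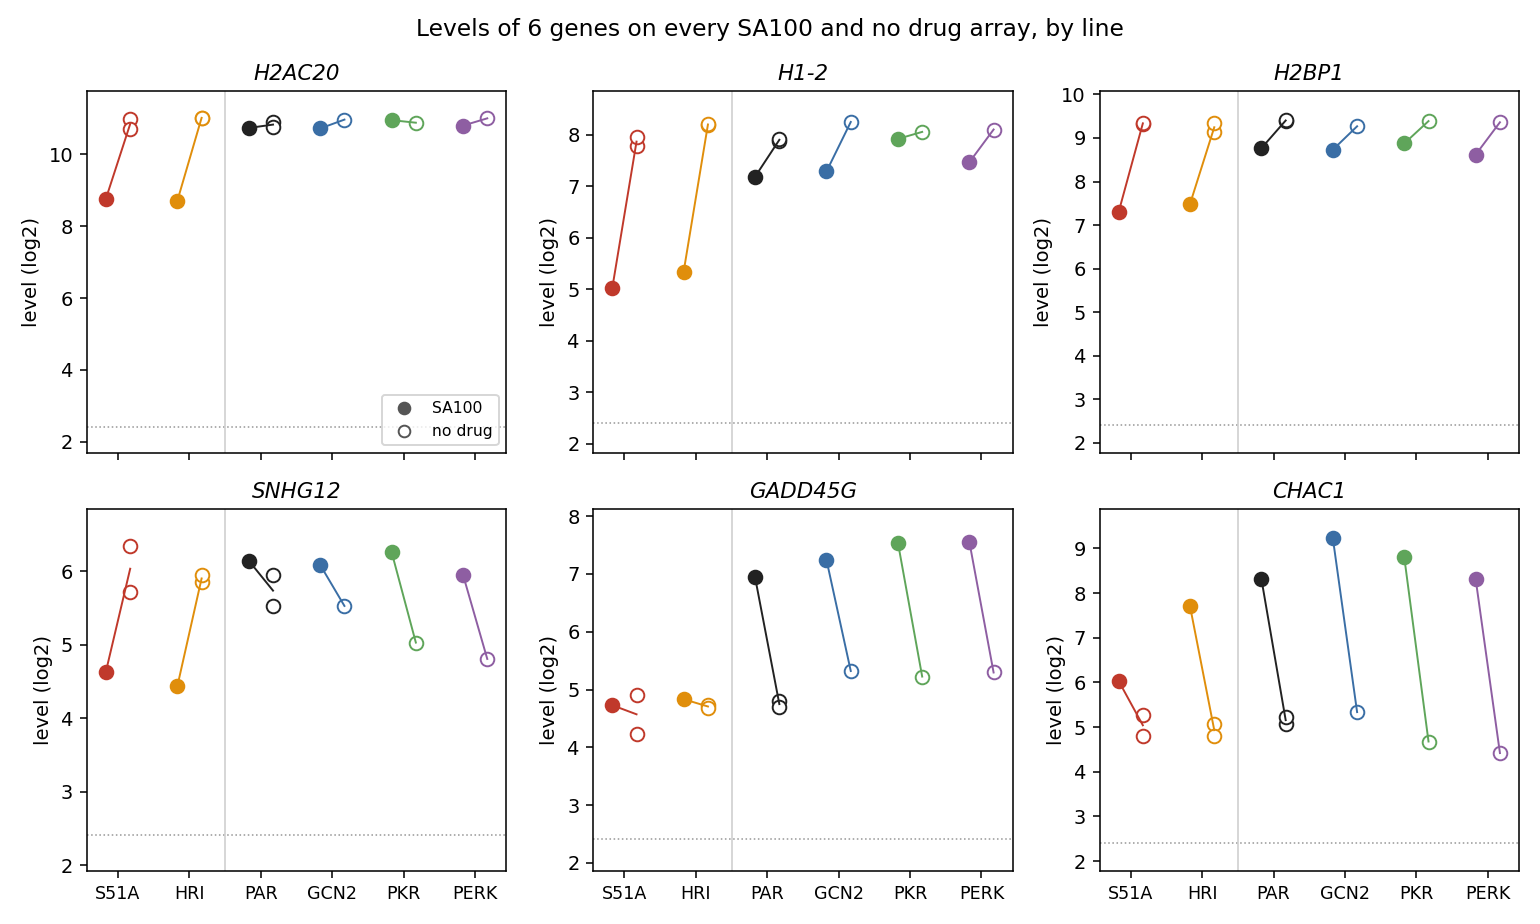
Level (log2) of the 6 genes past a test on each of the 15 arrays, by line, with SA100 as filled and no drug as open points, a line from the SA100 level to the no drug mean and a dotted line at the median of the table (2.41). With SA100 the S51A and HRI levels of H2AC20 (8.77 and 8.70) lay below all other arrays, while GADD45G was near its no drug level in both lines.

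Nearly all host transcripts of small nucleolar RNAs had changes below the 4 lines in S51A and HRI, and 1 passed the test. These are mostly noncoding transcripts whose introns release small nucleolar RNAs, and many are known to be degraded by nonsense-mediated decay, which needs translation. SNHG12 had a level of 4.63 with SA100 against 5.73 and 6.35 without drug in S51A, and of 4.43 with SA100 against 5.85 and 5.96 without drug in HRI. With SA100 it had 6.15 in PAR, 6.09 in GCN2, 6.27 in PKR and 5.95 in PERK, against 5.53 and 5.95, 5.53, 5.03 and 4.81 without drug. SNHG12 rose with SA100 in the 4 lines by 0.80 (SE 0.18, adjusted p = 0.0361), while in S51A and HRI its SA100 level lay below every no drug level. The mean difference was -2.24 (SE 0.30, adjusted p = 0.0347), a ratio of SA100 to no drug 4.72-fold lower. The call was lost in 7 of the 10 fits that leave out a line or array, those without PKR SA100, GCN2, PERK, PAR no drug A, S51A no drug B, HRI no drug A or HRI no drug B. It was also lost with no filter, with centred arrays, with a mean for each group and with the 6 changes as the unit, and the adjusted p over all alternatives ran from 0.00732 to 0.144 in limma.

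SNHG32 and SNHG17 also rose in the 4 lines, by 0.88 and 1.01 in limma (adjusted p = 0.00359 and 0.000936). SNHG32 changed by -0.31 in S51A and -0.31 in HRI, with a mean difference of -1.19 (adjusted p = 0.128). SNHG17 changed by -0.21 in S51A and 0.02 in HRI, with a mean difference of -1.11 (adjusted p = 0.141). ZFAS1 changed by -0.60 and -0.56 in S51A and HRI against 0.21 to 0.68 in the 4 lines, and SNHG8 by -0.47 and -0.59 against 0.20 to 0.58. SNHG1 differed from these, with a fall of 1.77 in the 4 lines (limma, adjusted p = 0.00944) and changes of -2.53 in S51A and -1.89 in HRI, the second within the range of the 4 lines. The list held 17 names, and 11 had a probe set of their own and were tested. In S51A 11 of 11 lay below each of the 4 lines, against 18.6% of all genes tested, and in HRI 10 of 11 did, against 15.5%. In both lines 10 of 11 did, against the 6.4% given above, and SNHG12 alone passed the test. Without the no drug array A of HRI, which stands apart from the others, 7 of 11 did. The median change of the 11 was -0.69 in S51A and -0.56 in HRI against 0.03 in PAR, 0.22 in GCN2, 0.63 in PKR and 0.36 in PERK, where the median over all genes tested lay between -0.01 and 0.08 in every line. The small nucleolar RNAs themselves, 127 of them tested, had 12 below each of the 4 lines in both S51A and HRI, against the same 6.4%, and 0 passed. Their median change was -0.35 in S51A and -0.04 in HRI, against -0.27 to 0.15 in the 4 lines.

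**Figure D2:**
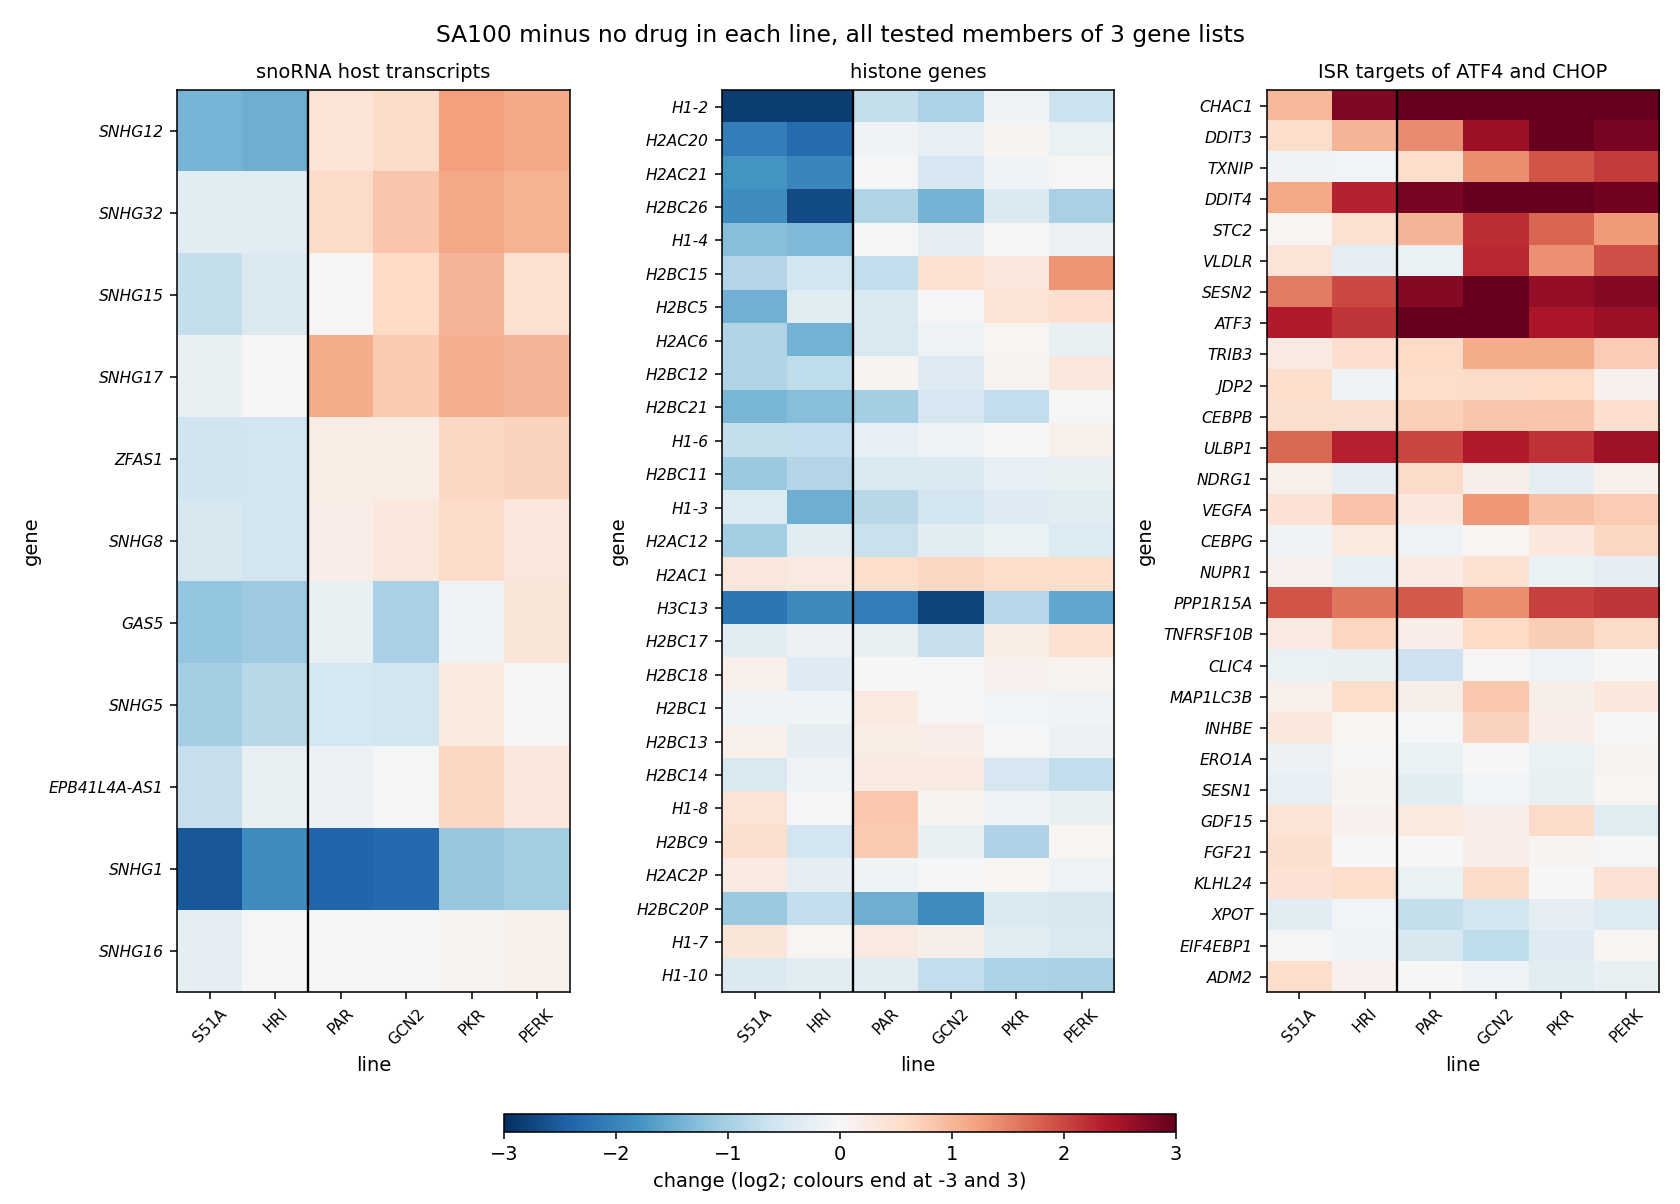
SA100 minus no drug (log2, colour) in each line for all tested snoRNA host transcripts, histone genes and stress response targets, each list ordered by the difference of S51A and HRI from the 4 lines. In the columns of S51A and HRI, SNHG12 and H1-2 are blue, with changes of -1.40 and -1.47 and of -2.84 and -2.85, and the ATF4 targets at the top of the third list are paler than in the 4 lines.

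Targets of ATF4 and CHOP, which act downstream of eIF2-alpha phosphorylation, rose in the 4 lines for 12 of 29 tested members, against 1.69% of all genes tested. CHAC1, which breaks down glutathione, had a level of 6.03 with SA100 against 5.27 and 4.81 without drug in S51A. In HRI it had 7.71 with SA100 against 5.06 and 4.80 without drug. In PAR, GCN2, PKR and PERK it reached 8.31, 9.23, 8.80 and 8.31 with SA100, against 4.42 to 5.33 without drug. The changes were 1.00 in S51A and 2.78 in HRI against 3.77 ± 0.42 in the 4 lines (SD, n = 4), so that S51A and HRI lay below all 4 and apart from each other. The difference was -2.73 for S51A (SE 0.36, adjusted p = 0.0398), a ratio of SA100 to no drug 6.62-fold lower, and -0.95 for HRI (SE 0.36), which did not pass. Over the alternatives the adjusted p of CHAC1 in S51A ran from 0.00447 to 0.392 in limma, and of the fits that leave out a line or array only that without PAR called it. The change of S51A minus that of HRI was -1.78 (95% interval -2.74 to -0.82, unadjusted p = 0.00173 in limma), which did not pass over all genes.

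DDIT4, an inhibitor of mTORC1, had changes of 1.15 in S51A and 2.32 in HRI against 2.85 to 4.15 in the 4 lines. Its SA100 level was 4.46 in S51A and 5.56 in HRI, against 6.28 to 7.73 in the 4 lines, and the groups did not overlap. DDIT3, which encodes CHOP, changed by 0.53 in S51A and 1.01 in HRI against 1.42 in PAR, 2.57 in GCN2, 2.99 in PKR and 2.85 in PERK. The no drug levels of DDIT3 were below the table's median of 2.41 on 8 of 9 arrays, near the low end of the scale, so the size of its changes is uncertain. STC2, a secreted glycoprotein, had SA100 levels of 5.80 and 5.99 in S51A and HRI, against 6.97 to 7.66 in the 4 lines. TXNIP, an inhibitor of thioredoxin, had 3.64 and 3.57, against 4.71 to 5.72. None of these 4 passed a test against the 4 lines. SESN2, which restrains mTORC1 and is a p53 target as well, had changes of 1.57 and 1.98 against 2.63 to 3.30.

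Not all targets on the same list lay below the 4 lines in S51A and HRI. PPP1R15A, the phosphatase subunit that reverses eIF2-alpha phosphorylation, changed by 1.89 in S51A and 1.60 in HRI. Both lay inside the range of 1.40 to 2.14 of the 4 lines. ATF3 changed by 2.37 and 2.14 against 2.44 to 3.96, below the 4 lines in both. ULBP1, a ligand of the NKG2D receptor, changed by 1.73 and 2.34 against 2.00 to 2.54, below the 4 lines in S51A only. The mRNA of ATF4 itself, which is not on this list, changed by 0.17 in S51A and -0.14 in HRI. In the 4 lines it changed by 0.32 ± 0.05 (SD, n = 4), and neither difference passed. Over the 29 tested members, 9 lay below each of the 4 lines in both S51A and HRI, against 6.4% of all genes tested, 1 passed in S51A, 0 in HRI and 0 for the mean. The list's median change was 0.39 in S51A and 0.30 in HRI against 0.28 in PAR, 0.69 in GCN2, 0.60 in PKR and 0.51 in PERK. Amino acid synthesis and transport genes, which ATF4 is known to drive, had 4 of 19 members below the 4 lines in both, and aminoacyl-tRNA synthetases 3 of 19, against the same 6.4%, with 0 past the test in either.

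GADD45G, a growth arrest and stress-inducible gene, stayed near its no drug level in both lines. With SA100 its level was 4.73 in S51A and 4.83 in HRI, against 6.94 in PAR, 7.24 in GCN2, 7.54 in PKR and 7.56 in PERK. Without drug it was 4.91 and 4.23 in S51A and 4.73 and 4.68 in HRI, against 4.80 and 4.70 in PAR and 5.22 to 5.32 in the other 3. It rose in the 4 lines by 2.18 (SE 0.15, adjusted p = 1.01e-05). The change was 0.16 in S51A and 0.13 in HRI against 2.17 ± 0.18 in the 4 lines (SD, n = 4), and the mean difference was -2.03 (SE 0.24, adjusted p = 0.0141). Of the 10 fits that leave out a line or array, the call was lost without PKR SA100 and without PERK. It was also lost with a mean for each group and with the 6 changes as the unit. The adjusted p of GADD45G over all alternatives ran from 0.00477 to 0.128 in limma. Of the other family members, GADD45B changed by 1.98 in S51A and 1.34 in HRI against 1.82 to 2.27 in the 4 lines, and GADD45A by 0.59 and 1.22 against 0.85 to 1.61.

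Immediate-early genes, the first transcription response to many stimuli, rose in the 4 lines for 19 of 35 tested members, against 1.69% of all genes tested. IER2 changed by 1.74 in S51A and 1.5 in HRI against 2.82 ± 0.16 in the 4 lines (SD, n = 4), and its mean difference of -1.19 did not pass (limma, adjusted p = 0.102). EGR1, a zinc finger transcription factor, changed by 4.66 in S51A and 3.63 in HRI against 4.68 to 5.71, and FOS by 3.44 and 2.76 against 3.72 to 4.58. JUN changed by 6.39 and 5.47 against 5.41 to 7.24. The list had 10 of 35 members below the 4 lines in both, against 6.4% of all genes tested, 0 past the test, and median changes of 0.87 in S51A and 0.96 in HRI, inside the span of 0.61 to 1.06 of the 4 lines.

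Among arsenite response genes under other regulators, changes in S51A and HRI lay within, above and below the range of the 4 lines. HMOX1, the heme-degrading enzyme and NRF2 target, had SA100 levels of 8.59 in S51A and 9.28 in HRI against 8.70 to 9.29 in the 4 lines, and changes of 4.09 and 4.43 against 4.56 ± 0.26 (SD, n = 4). The chaperone gene DNAJB1 changed by 2.75 and 2.89 against 2.27 to 2.70, and BAG3, a co-chaperone, by 2.17 and 2.79 against 2.09 to 2.47. DUSP1, a phosphatase of MAP kinases, changed by 3.82 and 3.49 against 3.99 to 4.13. The heat shock list had 6 of 17 members below each of the 4 lines in S51A, against 18.6% of all genes tested, and 1 of 17 in HRI, against 15.5%. The 1 below in both was CHORDC1, a co-chaperone of HSP90, which changed by 0.23 in S51A and 1.21 in HRI against 1.64 to 2.24. The median change of the list was 0.55 in S51A and 0.91 in HRI against 0.73 to 1.12 in the 4 lines. The NRF2 list likewise had 6 of 17 members below in S51A and 1 of 17 in HRI, with medians of 0.12 and 0.40 against -0.06 to 0.53. None of the genes in this paragraph passed a test of its change in S51A or HRI against the 4 lines. The p53 list had 7 of 22 members below the 4 lines in both and ribosomal protein genes 15 of 49, against 6.4% of all genes tested, each with 0 past the test.

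Metallothioneins are small zinc- and arsenic-binding proteins under MTF1. The list of metallothioneins and MTF1 targets held 10 names, of which 9 were on the array and 6 had levels that allowed a test. All 6 tested members rose in the 4 lines, against 1.69% of all genes tested. A gene that SA100 raises can pass the filter on level through its SA100 arrays alone, which affects this count. MT1M had SA100 levels of 5.52 in S51A and 6.35 in HRI against 7.38 to 8.04 in the 4 lines, and MT1F had 6.69 and 6.82 against 7.98 to 8.14. MT2A changed by 1.36 and 0.76 against 0.95 to 1.18, and SLC30A1, the zinc exporter under the same factor, by 2.01 and 1.91 against 1.82 to 2.18. Of the 6, 3 lay below the 4 lines in both S51A and HRI, against 6.4% of all genes tested, and 0 passed the test. The median change of the 6 was 1.42 in S51A and 1.21 in HRI against 1.73 to 2.47 in the 4 lines. The MT1 genes are close copies, so a probe set may read more than 1 of them.

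**Figure D3:**
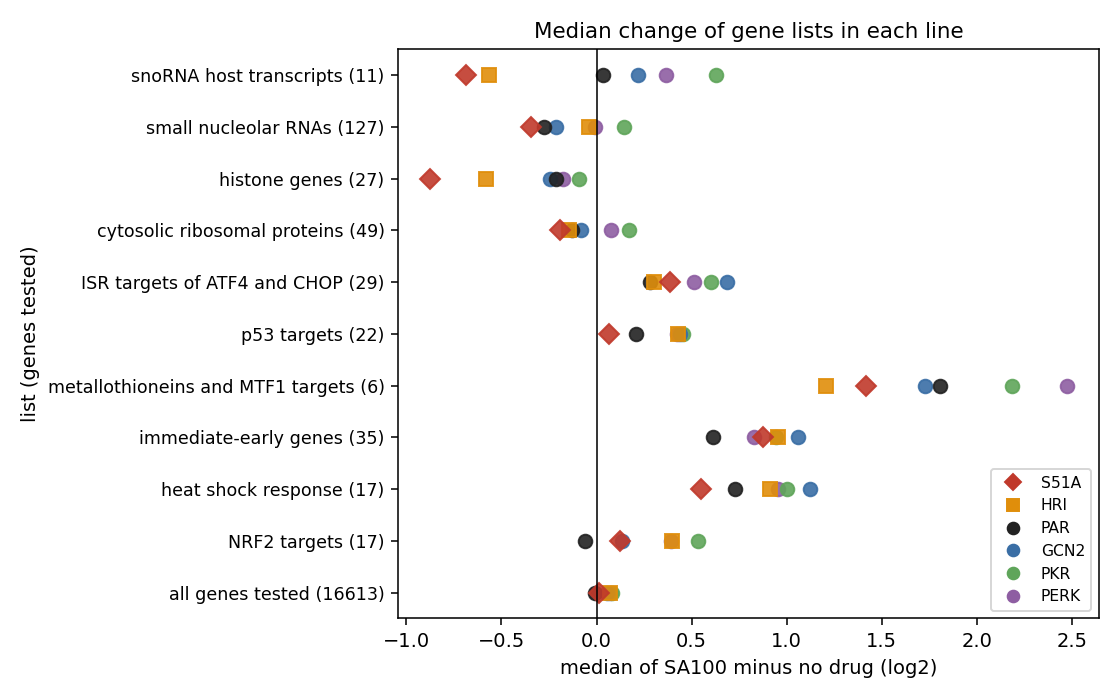
Median change (log2, SA100 minus no drug) of 10 gene lists and of all 16613 genes tested, with 1 point for each line. S51A and HRI lie left of the 4 lines for snoRNA hosts (-0.69 and -0.56), histone genes (-0.88 and -0.58) and metallothioneins. They also do for ribosomal protein genes (-0.19 and -0.15), with PAR close at -0.13. For immediate-early genes S51A and HRI lie among the 4 lines.

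The genes were also sorted by size, counting a gene as reduced where its change was at least 1 unit below the mean of the 4 lines and below each of them. S51A had 196 such genes (1.18%) and HRI 91 (0.548%). Of these, 40 were shared (0.241%), 156 were in S51A only and 51 in HRI only. In the other direction S51A had 46 genes (0.277%), HRI 172 (1.04%) and both 19 (0.114%), with 27 in S51A only and 153 in HRI only. S51A thus had more genes below than above the 4 lines, and HRI more above than below. These classes rest on size and carry no test of their own, and 0 of the 156 and 0 of the 51 passed the test of S51A against HRI. After a second quantile normalization S51A only had 107 genes below and 49 above, and HRI only had 67 below and 121 above. The counts of HRI also moved with its no drug arrays: HRI only had 98 genes below and 197 above without array A, and 155 and 376 without array B. Without the S51A no drug array A, S51A only had 297 below and 82 above. Without the PKR SA100 array, and so set against PAR, GCN2 and PERK only, 31 genes were reduced in both, 114 in S51A only and 61 in HRI only.

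Most of the 40 genes reduced in both were ones that SA100 raises elsewhere. The mean change of the 4 lines was at least 1 for 23 of them and below 0 for 5, of which 4 are the histone genes H1-2, H2AC20, H2AC21 and H1-4 and the fifth is H2BP1. In the 4 lines 24 of the 40 rose with SA100 past the test, against 1.69% of all genes tested. The rule for the class favours genes that rise there, so the choice of these genes affects the counts. The median change of the 40 was -0.37 in S51A and -0.17 in HRI against 1.13 in the 4 lines, as the rule for the class fixes. Beside the genes above, they included CCNL1, a cyclin tied to splicing, with changes of 0.29 and 0.70 against 1.54 to 2.06. TOE1, a nuclease that trims small nuclear RNA ends, had SA100 levels of 6.19 and 6.15 in S51A and HRI against 7.09 to 7.40 in the 4 lines, and levels of 6.09 to 6.51 without drug across all lines. RNF111, a ubiquitin ligase, had SA100 levels of 2.81 and 2.96 against 4.04 to 4.56. The mean differences were -1.34 for CCNL1, -1.21 for TOE1 and -1.46 for RNF111, with adjusted p of 0.0989, 0.0989 and 0.104 in limma. RAET1K, a pseudogene of the NKG2D ligand family, had the lowest summed difference, with SA100 levels of 1.78 and 1.94 in S51A and HRI, below the table's median, against 2.82 in PAR and 4.24 to 5.10 in the other 3. ANXA1 came next, but its no drug levels in PAR were 7.07 and 3.18, so its change there has no stable base.

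Among genes below in S51A only, CA5B, a mitochondrial carbonic anhydrase, had a change of -1.56 in S51A and 0.14 in HRI, against 0.01 in PAR and 1.5 to 2.71 in the other 3. LRRC37B had -0.40 and 0.50 against 0.29 to 2.44, and ANKRD1 had SA100 and no drug levels between 2.03 and 2.09 in S51A, below the median. The difference of S51A from HRI was -1.70 for CA5B (95% interval -3.50 to 0.10) and -1.17 for DDIT4 (95% interval -2.46 to 0.13). Of the 5 genes with the lowest summed difference in HRI only, 3 had a high level on its no drug array A. PRTG had 7.04 on that array against 3.49 on array B and 3.31 with SA100. THBS1 had 4.94 against 2.51, and VLDLR 6.11 against 3.02. H2BC26, a histone H2B gene, lay below the 4 lines in both, with changes of -1.87 in S51A and -2.68 in HRI against -1.41 to -0.43, and fell short of the size in S51A. TERC, the RNA of telomerase, changed by 0.37 and -0.57 against 0.08 to 1.89.

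**Figure D4:**
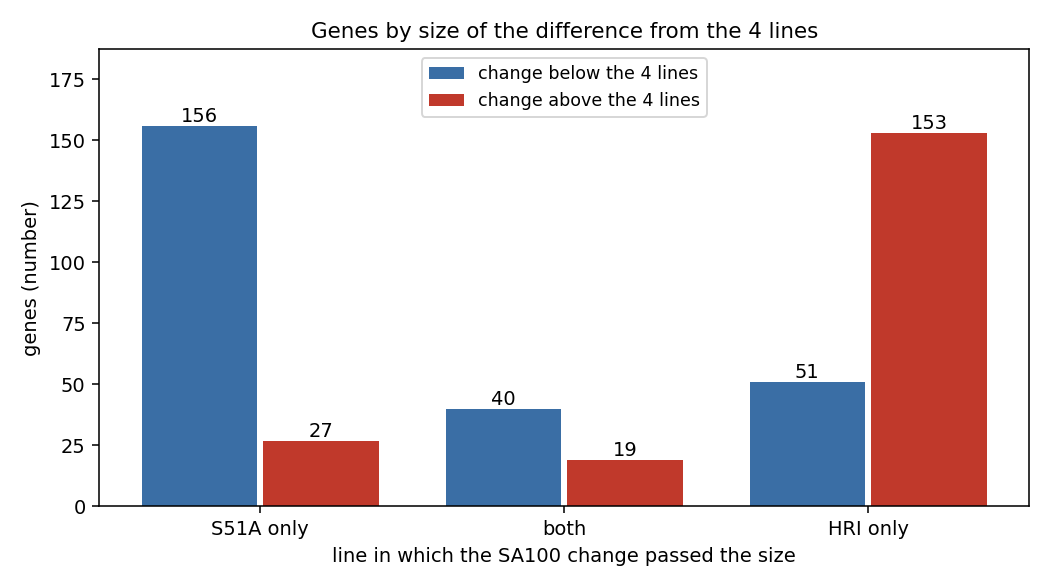
Number of genes whose SA100 change lay at least 1 log2 unit from the mean of the 4 lines and outside their range, in S51A only, both lines and HRI only, below (blue) and above (red). The bars read 156, 40 and 51 below and 27, 19 and 153 above.

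The 19 genes above the 4 lines in both were mostly ones that SA100 lowers elsewhere. The median change over the 19 was 0.05 in S51A and 0.19 in HRI against -1.05 in the 4 lines, and 11 of them fell with SA100 in the 4 lines past the test, against 1.47% of all genes, a count that the choice of these genes affects. NIN, a centrosome protein, had SA100 levels of 6.38 in S51A and 7.05 in HRI against 5.39 to 5.78 in the 4 lines, and 6.44 to 7.21 without drug. HIPK2, a nuclear kinase, had 7.94 and 7.91 against 6.58 to 7.22. HERC2, a large ubiquitin ligase, had 5.82 and 5.78 against 4.68 to 4.87, and its change was 0.00 and 0.10 against -1.07 ± 0.13 (SD, n = 4). In all 3 the SA100 levels of S51A and HRI lay above those of the 4 lines without overlap. CENPF, a kinetochore protein, AFDN, a junction protein, and MIB1, a ubiquitin ligase of Notch ligands, showed the same order, with changes between -0.31 and 0.19 in S51A and HRI and between -1.69 and -0.78 in the 4 lines. The mean difference was 1.39 for NIN, 1.37 for HIPK2 and 1.12 for HERC2, with adjusted p of 0.116, 0.128 and 0.128 in limma, so none passed. SALL3, a zinc finger factor, differed in that its change was 0.99 in S51A and 1.01 in HRI against -0.84 to -0.38. CAPN6 had 0.27 and 1.62 against -1.18 to -0.63, and RELN, an extracellular matrix protein, had 0.42 and -0.19 against -2.38 to -0.39. Over all genes, 7.52% lay above each of the 4 lines in both.

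**Figure D5:**
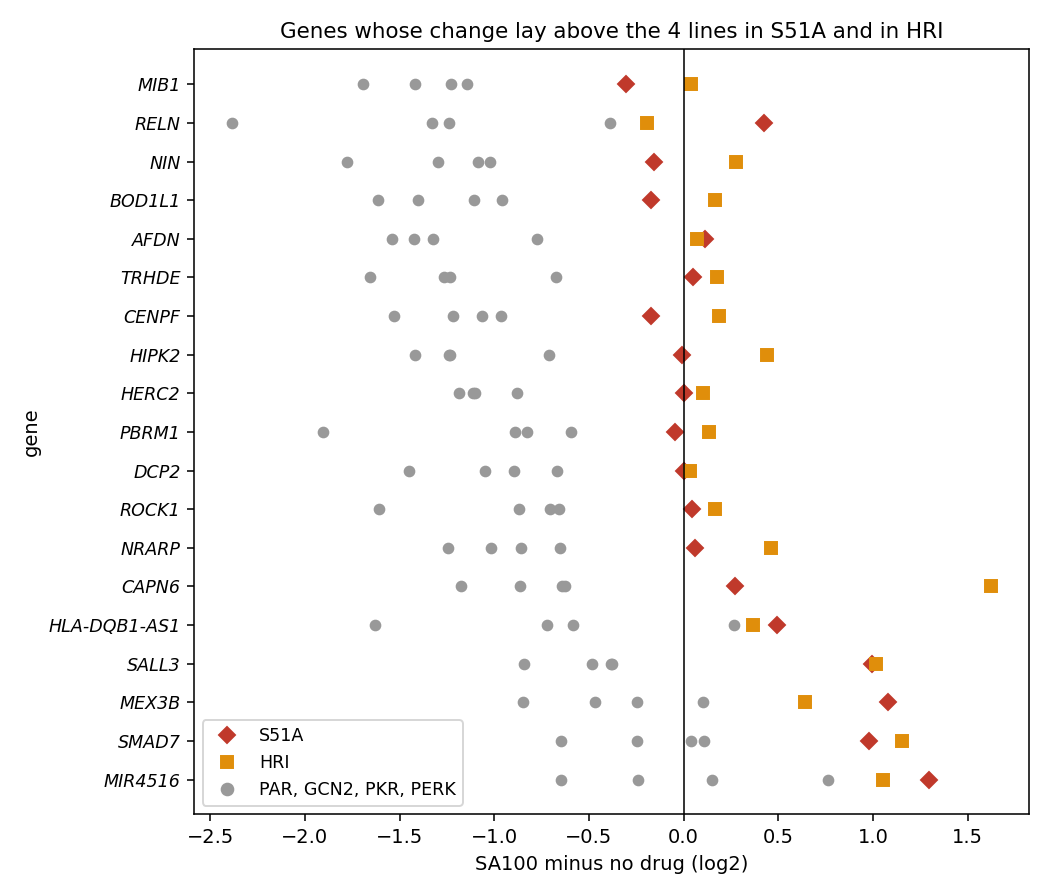
SA100 minus no drug (log2) of the 19 genes whose change lay above the 4 lines in S51A and in HRI, with S51A as diamonds, HRI as squares and each of the 4 lines as a grey circle. For HERC2 the diamonds and squares sit near 0.00 and 0.10 and the circles between -1.19 and -0.88.

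The named kinases served as a check of the labels. EIF2AK1, which encodes HRI, had a level of 7.79 with SA100 and 7.49 and 7.80 without drug in the HRI line, against 7.40 to 7.94 in the other lines, so its probe set showed no loss. EIF2AK4, which encodes GCN2, was lowest in the GCN2 line at 5.76 with SA100 and 5.84 without drug. EIF2AK2, which encodes PKR, had 6.74 with SA100 and 7.79 without drug in the PKR line, against 7.27 to 7.94 elsewhere, so the array labelled PKR no drug did not show the lower level of the array labelled PKR SA100. EIF2AK3, which encodes PERK, had 4.31 with SA100 and 3.33 without drug in the PERK line. EIF2S1, which encodes eIF2-alpha, lay between 6.20 and 6.80 on all 15 arrays. A probe set outside a deleted stretch, or a change of 1 amino acid, would not alter these levels, so they check the labels only in part.

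The SA100 arrays of HRI, GCN2, PKR and PERK correlated with each other at r = 0.987 to 0.991 over 53617 probe sets, the SA100 array of S51A with the others at 0.980 to 0.983 and that of PAR at 0.978 to 0.984. The no drug array A of HRI correlated with the other 14 at 0.952 to 0.970. The share of genes that changed by 2-fold or more was 1.23% in S51A and 1.37% in HRI, against 3.83% in PAR, 2.36% in GCN2, 3.94% in PKR and 3.76% in PERK. In HRI 176 of these were up and 52 down, and in S51A 97 were up and 108 down. PAR had 139 up and 497 down, where GCN2, PKR and PERK each had more up than down. The no drug level is the mean of 2 arrays in S51A, HRI and PAR and 1 array in GCN2, PKR and PERK. The shares are thus not equally noisy. Markers of blood cells reached at most 3.79 on any array and those of fibroblasts at most 4.16. Among epithelial markers EPCAM reached 6.66 on the S51A no drug array B, against 4.16 on array A and 2.57 to 3.58 in the 4 lines. The part of these differences between arrays in the results was not tested.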

How the data were processed

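Transcripts were measured on 24 Affymetrix arrays of HAP1 cells, of which the 15 with SA100 or no drug were used. The deposited values are log2 expression per probe set, made by the authors with RMA and the R package affy, per the submitters' processing notes; versions, build and filters are not given in the sources used here. Of 53617 probe sets, 23558 had exactly 1 gene symbol (2155 had several, 27904 none), which gave 22109 genes, with the probe set of highest mean for 618 of them. Genes at or above the overall median (2.41) on 2 or more of the 15 arrays were tested, 16613 in all. No read depth exists for arrays, and their number limits the precision.

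Two-sided tests were run in limma 3.58.1 under R 4.3.3, and p-values were adjusted after Benjamini and Hochberg over the 16613 genes, with calls under 0.05. The model had a term for each of 6 lines, an SA100 term shared by PAR, GCN2, PKR and PERK, and an extra SA100 term each for S51A and HRI (9 coefficients, 6 residual degrees of freedom). The spread comes from the duplicated no drug arrays and from how the 4 lines differ, and fitted differences weight these lines by their arrays. The fits were also run on simulated data with independent noise and the same added change in S51A and HRI. The simulated lines did not otherwise differ, so that run shows only that the fits return a known change. It does not bear on the calls reported here. The alternatives of the closing section covered the filter, probe sets, scaling, prior, weights, model, threshold and left-out arrays.

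The members and gene lists were chosen with earlier results of these data known, partly from an earlier treatment of the same table, and support nothing by their choice. Named genes were the eIF2-alpha genes, ATF4, DDIT3, EGR1, JUN and HMOX1, up to 12 lower and 6 higher genes past each test, from each list up to 4 called genes or else the 2 of lowest p, and up to 5 in each class by size. The classes above the 4 lines, and the other genes named, were chosen after their values were seen. Lists not described in the report (eIF2 pathway, MAP kinase phosphatases, NF-kB targets, unfolded protein response, mRNA decay regulators, KLF factors, NKG2D ligands, stress granule proteins, BCL2 family, cholesterol synthesis, G2 and mitosis, S phase) had 0 members past the test for S51A, HRI or their mean. Below each of the 4 lines in both lay 3 of 10 MAP kinase phosphatases and 5 of 22 eIF2 pathway genes, against 6.4% of all genes tested. NF-kB targets had 2 of 13, the unfolded protein response 2 of 21 and the BCL2 family 1 of 13. G2 and mitosis and S phase had 1 of 17 each, and the other lists named here had 0. Gene names follow RefSeq (GRCh38.p14), where 20894 genes matched.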

Additional observations from a re-analysis of the deposited data

Results flagged for a closer look

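The change with SA100 differed from that of the 4 lines, by the limma test of the difference itself, for CHAC1 in S51A (-2.73), for H1-2 in S51A (-2.22) and HRI (-2.23), and for H2AC20 in S51A (-1.96) and HRI (-2.20). For the mean of S51A and HRI it differed for SNHG12 (-2.24), H1-2 (-2.23), H2AC20 (-2.08), GADD45G (-2.03) and H2BP1 (-1.29). H2AC20 and H1-2 were the genes called for the mean in each alternative tried except that with the 6 changes as the unit, which called 0 genes.

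Within the 4 lines, 2 values stood far from the other 3. The change of EIF2AK1 in PAR was -0.51, against -0.09 in GCN2, -0.08 in PKR and -0.06 in PERK. The change of DDIT4 in GCN2 was 4.15, against 2.85 in PAR, 3.0 in PKR and 2.89 in PERK. This was tested for 32 genes, and chance flags about 1 in 20 such groups of 4.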

How the results depend on the processing

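In the setting reported, S51A had 3 genes called against the 4 lines, HRI 2, their mean 5 and SA100 in the 4 lines 525. The test of S51A against HRI called 0 genes in every alternative run. H1-2 and H2AC20 were called for the mean of S51A and HRI in every alternative except the 6 changes as the unit. With no filter, 0 genes were reduced in S51A only. After quantile normalizing again, 11 genes were called for the mean and 901 for SA100 in the 4 lines, and by size 30 genes were higher in both and 49 in S51A only. With arrays centred on their medians, S51A had 0 genes called, HRI 1 and the mean 3, so that 0 were reduced in both, 0 in S51A only and 1 in HRI only. That centring moved the median difference of S51A from HRI over all genes to -0.17, against -0.08. A trended robust prior called 12 for the mean and put 2 genes in S51A only. Array weights called 12 for S51A, 1 for HRI, 18 for the mean and 1463 for SA100 in the 4 lines, with 1 gene reduced in both and 11 in S51A only. A mean for each group of line and arm called 1 for S51A (CA5B), 0 for HRI and 3 for the mean, with 0 reduced in both. With the 6 changes as the unit, 0 genes were called for S51A, HRI and the mean, with 0 reduced in both and 0 in S51A only. A threshold of 0.1 called 9 for the mean and 1041 for SA100 in the 4 lines, and at 0.05 with a 2-fold change 184 genes passed for SA100 in the 4 lines.

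Leaving out each line or duplicated array in turn gave 0 to 3 calls for S51A, 0 to 1 for HRI, 2 to 15 for the mean and 218 to 739 for SA100 in the 4 lines. It gave 0 genes reduced in both, 0 to 3 in S51A only and 0 to 1 in HRI only. By size it gave 31 to 100 genes reduced in both, 114 to 343 in S51A only and 45 to 155 in HRI only, and 13 to 34 higher in both, 24 to 82 in S51A only and 109 to 376 in HRI only. The highest counts of reduced genes, 100 in both and 343 in S51A only, came without PAR. In fits without a line or the PKR SA100 array, a change had to lie outside only the lines left. The counts by size are thus not all under the same condition. Without the PKR SA100 array, the mean had 2 calls and SA100 in the 4 lines 218. CHAC1 in S51A was called without PAR and in no other of these. GADD45G was not called for the mean without PKR or without PERK. Further counts, added after the data were seen, were of members below each line compared in both S51A and HRI. They were 7 to 10 for snoRNA hosts, 11 to 14 for histone genes and 7 to 11 for stress response targets.

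For single genes and settings the direction turned 10 times, none of them past a test. The mean difference of EIF2AK4 was -0.000189 with centred arrays, -0.061 with array weights and -0.011 both with a mean for each group and with the 6 changes as the unit. Over the fits that leave out a line or array, it ran from -0.085 to 0.055 for EIF2AK4, from -0.27 to 0.0080 for EIF2S1, from -0.21 to 0.00069 for THY1 and from -0.62 to 0.090 for EIF2AK3. No paired analysis was possible because each SA100 group has 1 array, so the groups compared share fewer than 2 repetition letters. The causes of these shifts were not tested, beyond the fewer arrays in the fits that leave some out.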
